A study of Rattus norvegicus with 24 samples.

Results

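The miR-132 and miR-212 cluster was followed across miR arrays of INS1 cells, an insulin-producing rat insulinoma line used in place of primary β-cells. Its members were taken by name: the 3p and 5p arms of miR-132 and miR-212, 4 of the 758 rat miRs on the array. The 24 arrays fell into 8 groups of 3: cells left without treatment (Ctrl), cells given IL-1β at 150 pg/ml plus IFN-γ at 0.1 ng/ml (Cyt), cells given Givinostat at 125 nM alone (Giv_Ctrl) and cells given Givinostat 1 h ahead of the same cytokines (Giv_Cyt), each collected at 6 h and at 24 h. All cells had been plated for 48 h beforehand, and all groups came from this tumour line, so they model β-cells without the other cells of an islet. Givinostat inhibits lysine deacetylases, and the cytokine pair is used to mimic the inflammation that damages β-cells. The deposited design speaks of technical replicates and the study of triplicates, so the spread between the 3 arrays of a group may be technical, and p-values measure only that spread.

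Both miRs are cut from neighbouring hairpins of the same primary transcript, and each hairpin can yield a 5p and a 3p arm. The transcript is known as a target of CREB, the transcription factor that cAMP and calcium signals activate, and in neurons it is induced by activity. In β-cells it is known to be raised by agents that increase cAMP, and the 3p arms have been linked to insulin secretion. An arm finds its target messengers mainly through its seed, bases 2 to 8.

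The mature sequences of the 4 members, from RefSeq with assembly GRCr8, are shown because the seed tells which arms can share targets. They are written 5′ to 3′ with the seed in capitals, and the species prefix rno is left out hereafter.
rno-miR-132-3p: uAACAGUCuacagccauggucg
rno-miR-212-3p: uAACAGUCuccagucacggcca
rno-miR-132-5p: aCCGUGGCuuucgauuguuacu
rno-miR-212-5p: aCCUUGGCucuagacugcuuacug

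Both 3p arms carried the same seed, and bases 1 to 9 were identical between them. Over all 22 bases they were identical at 17 positions. No other miR of the array with a RefSeq sequence had this seed, and 685 of the 758 array miRs had such a sequence. The 5p arms differed from each other within the seed, and no array miR shared the seed of either. In GRCr8 all 4 arms lie on the plus strand of chromosome 10, miR-212-5p at chr10:60521771-60521794, miR-212-3p at chr10:60521811-60521832, miR-132-5p at chr10:60522055-60522076 and miR-132-3p at chr10:60522091-60522112. The gene table for that assembly lists no other gene overlapping the pair, and Hic1 is the gene before it.

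The array read each arm with 2 probes of different length, each on 8 spots. The longer probes of the 3p arms are shown 5′ to 3′ because they decide whether the array can tell these near-identical arms apart.
miR-132-3p probe: cgaccatggctgtaga
miR-212-3p probe: tggccgtgactgga
The probe for miR-132-3p pairs with bases 7 to 22 of its miR and that for miR-212-3p with bases 9 to 22, so both rest on the 3′ end, where the arms differ. Against the same arm of the other miR each of the 4 probes for the 3p arms had 5 mismatches. Cross-reading between the arms was not tested. On rn4, the build of the array annotation, the probes of the cluster span chr10:62480472-62480806.

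Both 3p arms were detected on every array, and neither 5p arm was detected on any. Each spot carries a mark for being well above background, and detection of an arm on an array was set at 8 or more marked spots of 16. All 16 spots of miR-132-3p were marked on all 24 arrays. For miR-212-3p between 13 and 16 spots were marked, the lowest count being on 6h_Giv_Cyt replicate 3. For miR-132-5p and miR-212-5p the count was 0 of 16 spots on all 24 arrays. Their background-subtracted signals lay between -2.8 and -0.00379 for miR-132-5p and between -1.55 and 5.09 for miR-212-5p, while the negative control spots had array means between 1.71 and 5.37. The 5p arms were thus not well above background in any group, and no difference is read from them. The same signal ran from 54.9 to 190.8 for miR-132-3p and from 46.6 to 110.6 for miR-212-3p, so both were dim but measurable. Signals of different arms depend on their probes and are not compared as levels.

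**Figure D1:**
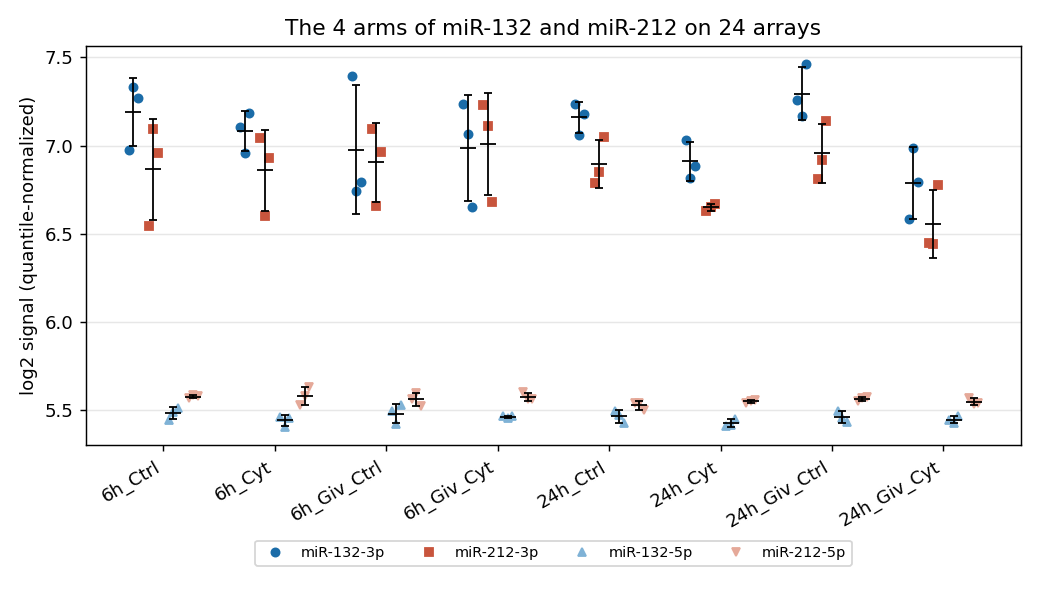
Log2 signal after quantile normalization (vertical axis) of the 4 arms in the 8 groups (horizontal axis), with 1 point per array and black bars for the mean ± SD of 3 arrays. The 3p arms lie between 6.44 and 7.46, the 5p arms stay between 5.41 and 5.63 at background, and both 3p arms have their lowest mean in 24h_Giv_Cyt.

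The INS1 identity of the samples was read from islet miRs. Of 5 miRs known from islets or endocrine and epithelial cells, 4 were detected on all 24 arrays (miR-375-3p, miR-7a-5p, miR-141-3p and miR-182), and miR-200a-3p was detected on none. Of 12 markers of liver, muscle, blood and mesenchyme, 9 were detected on none of the arrays. The others were miR-206-3p, detected on 24 arrays, miR-214-3p on 13 and miR-1-3p on 3. Between 129 and 211 miRs were detected per array, 168 of the 758 on all arrays of at least 1 group. Replicate arrays correlated at r between 0.957 and 0.999 over all miRs. The brightness of the arrays, taken as the 75th percentile of the processed signal of the miRs detected on all arrays, was 596 to 1003 in 24h_Cyt and 487 to 571 in 24h_Giv_Cyt. It was 271 to 452 on the other arrays except 6h_Giv_Ctrl replicate 1, which reached 682.

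The first question was whether cytokines changed the cluster at 24 h. In the normalized data both 3p arms were lower on every cytokine array than on every matched array without cytokines, but neither passed the test. On the log2 scale, miR-132-3p read 7.24, 7.06 and 7.18 in the 24h_Ctrl arrays. In the 24h_Cyt arrays it read 7.03, 6.82 and 6.88. The highest cytokine array was thus below the lowest control array, by a margin smaller than the SD of either group (0.089 and 0.11, n = 3 each). The log2FC was -0.25 with a standard error of 0.16 and a 95% confidence interval from -0.60 to 0.098, and limma's adjusted p-value was 0.378.

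miR-212-3p, the partner with the same seed, read 6.79, 6.85 and 7.05 in 24h_Ctrl. In 24h_Cyt it read 6.63, 6.65 and 6.67, a narrow set below all control arrays. The log2FC was -0.25 (SE 0.16, 95% confidence interval from -0.59 to 0.098, limma's adjusted p-value 0.378). Not overlapping in this direction was common in this comparison: it held for 20.3% of the 758 miRs. The test called 3.96% of the 758 miRs and 0 of the 4 arms. Of the 168 detected miRs, 17 had a lower log2FC than miR-132-3p and 18 a lower one than miR-212-3p.

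With Givinostat present, both arms again read lower on every cytokine array at 24 h, and again neither passed the test. miR-132-3p read 7.26, 7.17 and 7.46 in 24h_Giv_Ctrl. In 24h_Giv_Cyt it read 6.58, 6.99 and 6.79. The groups did not overlap, which held in this direction for 15.3% of the 758 miRs. The log2FC was -0.51 with a standard error of 0.16 and a 95% confidence interval from -0.85 to -0.16, and limma's adjusted p-value over the 758 miRs was 0.202. Of the 168 detected miRs, 1 had a lower log2FC in this comparison.

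miR-212-3p read 6.81, 6.92 and 7.14 in 24h_Giv_Ctrl. In 24h_Giv_Cyt it read 6.45, 6.44 and 6.78, again with no overlap. The log2FC was -0.40 (SE 0.16, 95% confidence interval from -0.74 to -0.057, limma's adjusted p-value 0.308), and 2 of the 168 detected miRs had a lower one. The test called 0.528% of the 758 miRs and none of the 4 arms. The pooled correlation fit of the study, which counts the 16 spots of an array towards the error, called both 3p arms here with adjusted p-values of 0.00154 and 0.00444, in a list of 5.67% of all miRs. It was kept as an alternative, since all spots of 1 array read 1 RNA sample.

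The 2 probes of each arm gave the same direction. For miR-132-3p in 24h_Giv_Cyt vs 24h_Giv_Ctrl the longer probe gave a log2 difference of -0.59 and the shorter -0.42, and for miR-212-3p the values were -0.45 and -0.35. In 24h_Cyt vs 24h_Ctrl they were -0.30 and -0.19 for miR-132-3p, where the shorter probe's groups overlapped, and -0.32 and -0.18 for miR-212-3p. The arrays were spread over 4 glass slides, of which slide 1 was scanned on another day than the rest. Arrays of 24h_Giv_Cyt and 24h_Giv_Ctrl shared slides 3 and 4. Within slide 3 the log2 difference was -0.52 for miR-132-3p and -0.25 for miR-212-3p, from 1 array against 2. Within slide 4 it was -0.47 and -0.36, from 2 arrays against 1. No slide held both 24h_Cyt and 24h_Ctrl arrays, so slide and group cannot be told apart within a slide there. With slide as a random block the log2FC in that comparison was -0.26 for both arms. With slide as a fixed block it was -0.44 for miR-132-3p (SE 0.31, limma's adjusted p-value 0.791) and -0.052 for miR-212-3p (SE 0.30, 0.98).

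In 24h_Cyt vs 24h_Ctrl the direction depended on the scaling between arrays. Before normalization the background-subtracted signal of miR-132-3p was 86.6, 64.8 and 88 on the 24h_Ctrl arrays. It was 190.8, 131.5 and 107 on the 24h_Cyt arrays, higher on all of them. For miR-212-3p it was 46.6, 48.7 and 74.6 in 24h_Ctrl and 107.3, 108.8 and 81.4 in 24h_Cyt. The 24h_Cyt arrays as a whole were brighter than those of 24h_Ctrl (596 to 1003 against 271 to 347). So were those of 24h_Giv_Cyt against 24h_Giv_Ctrl (487 to 571 against 303 to 452). At 6 h the ranges overlapped (378 to 413 in 6h_Cyt, 279 to 416 in 6h_Ctrl). Replicates 1 and 2 of 24h_Cyt were on slide 1, as was the bright 6h_Giv_Ctrl replicate 1, which had no cytokines. In 24h_Cyt vs 24h_Ctrl cytokines and slide cannot be told apart as sources of the brightness. The fit without normalization used foreground signals that still held background, which shrinks the log2FC of dim miRs more than that of bright ones. In that fit the median log2FC of the detected miRs in 24h_Cyt vs 24h_Ctrl was 0.70, against 0.55 for miR-132-3p and 0.49 for miR-212-3p. In 24h_Giv_Cyt vs 24h_Giv_Ctrl the corresponding values were 0.43 for that median, -0.026 for miR-132-3p and 0.090 for miR-212-3p. Both arms were then called higher in 24h_Cyt vs 24h_Ctrl (limma's adjusted p-values 0.034 and 0.014), as were 22.8% of all miRs, and 0 miRs were called lower. The lower normalized values are therefore values relative to the other miRs of the same array. The part of array brightness in the result was not tested. Fewer copies per cell and a changed amount of other small RNAs cannot be told apart in such bulk samples.

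**Figure D2:**
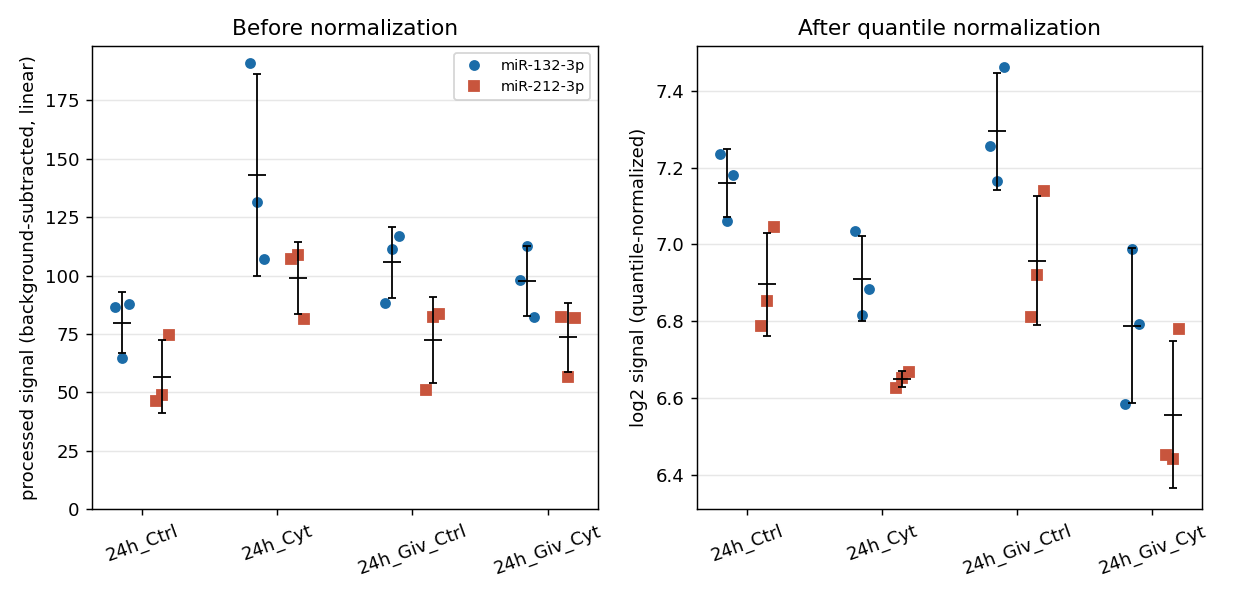
The 3p arms on the 24 h arrays before normalization (left: background-subtracted linear signal) and after quantile normalization (right: log2 signal), with 1 point per array and bars for the mean ± SD of 3 arrays. miR-132-3p is at 107 or more on all 24h_Cyt arrays against 88 or less in 24h_Ctrl on the left, and lower with cytokines on all arrays on the right.

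The values also depended on the signal taken. On background-subtracted signals, with each array set to a common 75th percentile over the detected miRs, the log2FC of miR-132-3p was -0.44 in 24h_Cyt vs 24h_Ctrl (limma's adjusted p-value 0.0223). It was -0.56 in 24h_Giv_Cyt vs 24h_Giv_Ctrl (0.0244). Both were called, beside 20.9% and 2.17% of the 369 miRs that could be tested on this signal. For miR-212-3p the values were -0.43 and -0.41, with limma's adjusted p-values of 0.254 and 0.546, and neither was called. With each array set to the percentile over all miRs instead, the values of miR-132-3p were -0.51 and -1.10 (limma's adjusted p-values 0.685 and 0.274), and neither was called. Only 129 to 211 of the 758 miRs were detected per array, so that percentile falls near the edge of detection and scales less reliably. Another background correction, normexp, followed by quantile normalization gave -0.20 for both arms in 24h_Cyt vs 24h_Ctrl and called neither. Centred on 4 internal control miRs (both arms of miR-423 on the array, miR-103-3p and let-7c-5p), the log2FC in 24h_Cyt vs 24h_Ctrl was 0.12 for miR-132-3p and 0.061 for miR-212-3p, while the median of the detected miRs was 0.27. In 24h_Giv_Cyt vs 24h_Giv_Ctrl it was -0.24 and -0.12, against a median of 0.22. Of those controls, let-7c-5p itself was called lower in 24h_Cyt vs 24h_Ctrl in the quantile-normalized data (log2FC -0.38, limma's adjusted p-value 0.0452). In 24h_Giv_Cyt vs 24h_Giv_Ctrl it gave -0.15 (limma's adjusted p-value 0.57) and was not called. miR-423-3p was detected on 0 and miR-423-5p on 1 of the arrays.

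At 6 h neither arm separated the groups with and without cytokines. miR-132-3p read 6.97, 7.33 and 7.27 in 6h_Ctrl and 7.11, 6.96 and 7.18 in 6h_Cyt. The groups overlapped, and the log2FC was -0.11 (95% confidence interval from -0.45 to 0.24). For miR-212-3p, at 6.55, 7.09 and 6.96 in 6h_Ctrl and 7.05, 6.60 and 6.93 in 6h_Cyt, it was -0.0051 (95% confidence interval from -0.35 to 0.34). Limma's adjusted p-value was 0.999 for both, and 0% of the 758 miRs were called (30 had an unadjusted p-value below 0.05). Of the 168 detected miRs, 6 had a lower log2FC than miR-132-3p and 72 a lower one than miR-212-3p. Within slide 2 the log2 difference was -0.12 for miR-132-3p and -0.098 for miR-212-3p, from 2 arrays against 3. In 6h_Giv_Cyt vs 6h_Giv_Ctrl the log2FC was 0.0092 for miR-132-3p and 0.10 for miR-212-3p, with overlapping groups and 0% of miRs called (limma's adjusted p-values 0.997 for both). The arrays of these groups were widely spread: 6h_Giv_Ctrl replicate 1, alone of its group on slide 1, read 7.40 for miR-132-3p against 6.74 and 6.79. 6h_Giv_Cyt replicate 3 read 6.65 against 7.24 and 7.07.

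**Figure D3:**
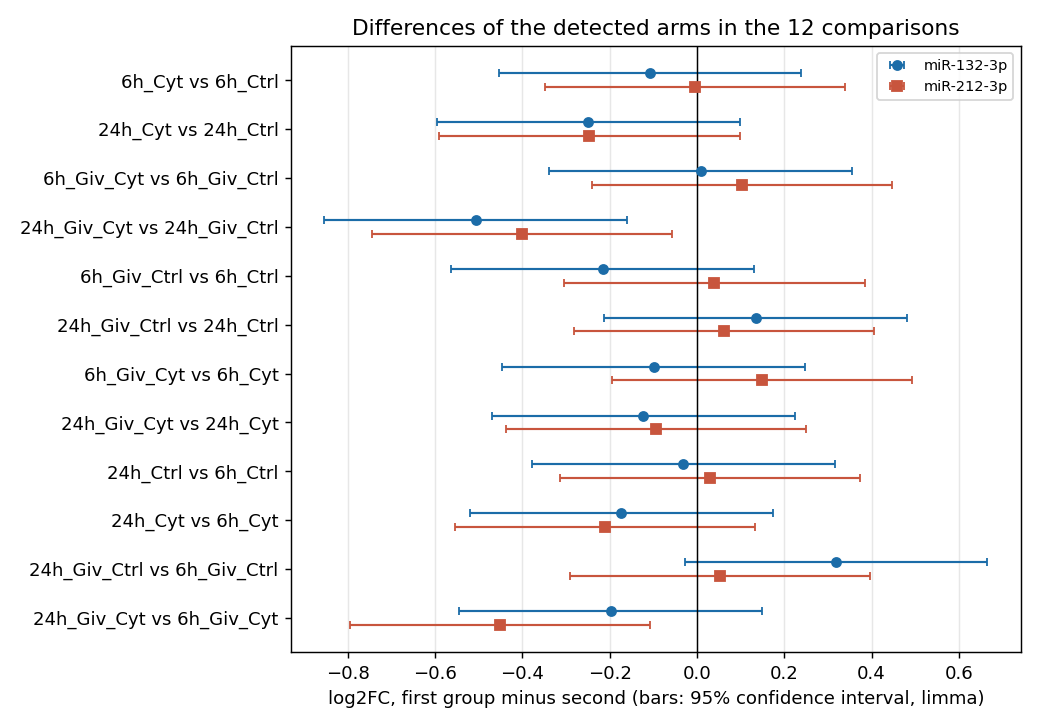
Log2FC (horizontal axis, first group minus second) of miR-132-3p and miR-212-3p in the 12 pairwise comparisons, with 95% confidence intervals from limma over 24 arrays. The intervals leave out 0 for both arms in 24h_Giv_Cyt vs 24h_Giv_Ctrl and for miR-212-3p in 24h_Giv_Cyt vs 6h_Giv_Cyt, and no adjusted p-value passed 0.05.

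Averaged over both times and both Givinostat states, the cytokine effect on miR-132-3p was a log2FC of -0.21 (SE 0.082, 95% confidence interval from -0.39 to -0.040, limma's adjusted p-value 0.138). Of the 168 detected miRs, 2 had a lower average effect. For miR-212-3p it was -0.14 (SE 0.082, 95% confidence interval from -0.31 to 0.035, limma's adjusted p-value 0.323), and 12 of the 168 had a lower one. The test called 1.32% of the 758 miRs and none of the arms, and the pooled correlation fit called miR-132-3p alone (adjusted p-value 0.0063), in a list of 1.98%. Whether the cytokine effect differed between 24 h and 6 h was tested as an interaction, in which 0.528% of miRs were called. It was -0.14 for miR-132-3p (95% confidence interval from -0.63 to 0.35, limma's adjusted p-value 0.916) and -0.24 for miR-212-3p (from -0.73 to 0.25, 0.822). Whether it differed with and without Givinostat was tested at each time, and 0% of miRs were called at either. At 24 h this difference was -0.26 for miR-132-3p (95% confidence interval from -0.75 to 0.23) and -0.15 for miR-212-3p (from -0.64 to 0.33), with limma's adjusted p-value at 0.953 for both. The larger values seen with Givinostat at 24 h were therefore not shown to differ from those without it.

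The second question was whether the deacetylase inhibitor itself moved the cluster. In the 4 comparisons with against without Givinostat, the log2FC of the 3p arms ran from -0.22 to 0.15, and limma's adjusted p-values from 0.924 to 0.991. The groups overlapped in all 4 comparisons for both arms. In 6h_Giv_Cyt vs 6h_Cyt and 24h_Giv_Cyt vs 24h_Cyt no slide held arrays of both groups, so slide and Givinostat cannot be told apart there. The test called 0.132% of miRs in 24h_Giv_Cyt vs 24h_Cyt and 0% in the others. The lowest value was that of miR-132-3p in 6h_Giv_Ctrl vs 6h_Ctrl. Within slide 2, without the bright array of slide 1, it was -0.43, from 2 arrays against 3. The average Givinostat effect was -0.076 for miR-132-3p (SE 0.082, 95% confidence interval from -0.25 to 0.098, limma's adjusted p-value 0.865). It was 0.039 for miR-212-3p (SE 0.082, from -0.13 to 0.21, 0.887), with 0% of miRs called.

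The third question was how the arms differed between 6 h and 24 h of the same treatment. In 24h_Ctrl vs 6h_Ctrl and 24h_Giv_Ctrl vs 6h_Giv_Ctrl no slide held arrays of both groups, so slide and time cannot be told apart there. Untreated cells gave log2 differences of -0.032 for miR-132-3p and 0.031 for miR-212-3p in 24h_Ctrl vs 6h_Ctrl, where 0% of miRs were called (limma's adjusted p-values 0.994 for both). The value farthest from 0 was that of miR-212-3p in 24h_Giv_Cyt vs 6h_Giv_Cyt. It read 7.23, 7.11 and 6.68 in 6h_Giv_Cyt and 6.45, 6.44 and 6.78 in 24h_Giv_Cyt, where replicate 3 of each group made them overlap. The log2FC was -0.45 (SE 0.16, 95% confidence interval from -0.79 to -0.11, limma's adjusted p-value 0.35). None of the other detected miRs had a lower one, and 0.396% of miRs were called. The pooled correlation fit called it (adjusted p-value 0.00143), with 1.72% of miRs. Within slide 3 the log2 difference was -0.23, from 1 array against 3. For miR-132-3p the same comparison gave -0.20 (SE 0.16, limma's adjusted p-value 0.912), and 10 of the 168 detected miRs had a lower log2FC.

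miR-132-3p had its highest time difference in 24h_Giv_Ctrl vs 6h_Giv_Ctrl, at 0.32 (SE 0.16, 95% confidence interval from -0.028 to 0.66, limma's adjusted p-value 1.00), with 0% of miRs called. The groups overlapped through the array of 6h_Giv_Ctrl on slide 1, and without that array the log2FC was 0.53 (limma's adjusted p-value 0.139). For miR-212-3p it was 0.052. In 24h_Cyt vs 6h_Cyt the log2FC was -0.17 for miR-132-3p and -0.21 for miR-212-3p, with 0.792% of miRs called (limma's adjusted p-values 0.77 and 0.676). The average of 24 h minus 6 h was -0.021 for miR-132-3p and -0.14 for miR-212-3p (limma's adjusted p-values 0.945 and 0.572), with 0.264% of miRs called.

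Over the 12 pairwise comparisons, 3 averages and 3 interactions, 0 of the 4 arms were called by limma. An unadjusted p-value below 0.05 was reached by 4 of the 36 values of the 3p arms. All 4 drew on the 24h_Giv_Cyt arrays, and the averages and interactions reuse the pairwise comparisons. The 36 values are thus not independent, and the count is not read as a result. In order of the group means, miR-132-3p was highest in 24h_Giv_Ctrl (7.29 ± 0.15, SD, n = 3), followed by 6h_Ctrl, 24h_Ctrl, 6h_Cyt, 6h_Giv_Cyt, 6h_Giv_Ctrl, 24h_Cyt and 24h_Giv_Cyt (6.79 ± 0.20). Neighbours in that order lay 0.0092 to 0.12 apart, less than the pooled SD within groups of 0.21. miR-212-3p was highest in 6h_Giv_Cyt (7.01 ± 0.29), then in 24h_Giv_Ctrl, 6h_Giv_Ctrl, 24h_Ctrl, 6h_Ctrl, 6h_Cyt, 24h_Cyt and 24h_Giv_Cyt (6.56 ± 0.19). Its neighbours lay 0.0051 to 0.21 apart, against a pooled SD of 0.21. The 24h_Cyt and 24h_Giv_Cyt groups took the last places for both arms.

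The 3p arms come from the same transcript, so their difference within an array was followed as well. A factor that scales both arms alike would cancel fully only on signals free of background. The signals used here still hold background, so it cancels only in part. On 24h_Ctrl replicate 1 the difference was 0.45 here and 0.89 on scaled background-subtracted signals. Only the change of the difference between groups is read. The difference was 0.43, 0.24 and 0.31 in 6h_Ctrl and 0.062, 0.36 and 0.25 in 6h_Cyt. In 6h_Giv_Cyt it was 0.0085, -0.047 and -0.029, below all arrays of 6h_Cyt. The change against 6h_Cyt was -0.25, with p = 0.1 by a two-sided exact permutation test, the smallest p that 3 arrays against 3 allow.

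In 24h_Giv_Cyt it was 0.13, 0.55 and 0.014, above all arrays of 6h_Giv_Cyt, a change of 0.25 (exact permutation p = 0.1). The p-value adjusted over the 12 comparisons was 0.6 for both, and the other 10 comparisons overlapped, with exact permutation p-values from 0.2 to 1. On scaled background-subtracted signals 24h_Giv_Cyt overlapped with 6h_Giv_Cyt, at 0.0053 on replicate 3 of the former and 0.025 on replicate 1 of the latter. All 6h_Giv_Cyt arrays were on slide 3, which held no 6h_Cyt array. At 24 h cytokines changed the difference by -0.0030 without Givinostat and by -0.11 with it. Across the 24 arrays the log2 signals of both arms correlated at r = 0.692, and their deviations from the group means at r = 0.69 (n = 24). These values are descriptions, since the points share array brightness.

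**Figure D4:**
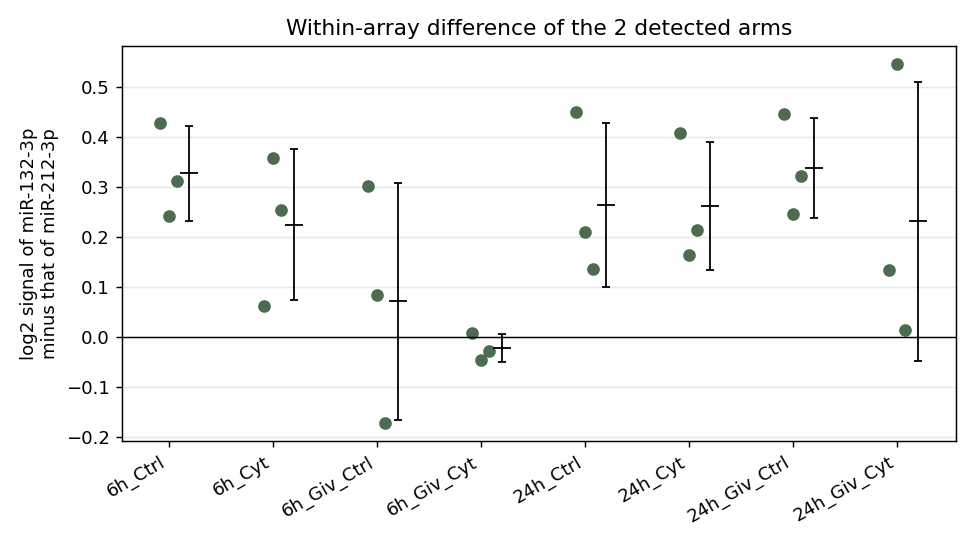
Log2 signal of miR-132-3p minus that of miR-212-3p on each array (vertical axis) in the 8 groups, with bars for the mean ± SD of 3 arrays. The 6h_Giv_Cyt arrays lie between -0.047 and 0.0085, below all arrays of 6h_Cyt and 24h_Giv_Cyt. The lowest 24h_Giv_Cyt array is at 0.014, and on scaled background-subtracted signals these 24 h and 6 h groups overlap.

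The miRs closest in pattern to miR-132-3p over the 8 group means, among the 168 detected, were miR-93-5p (r = 0.902), miR-107-3p (0.882), miR-129-5p (0.873), miR-196b-5p (0.863) and miR-375-3p (0.86, an abundant miR of islets). Its partner miR-212-3p ranked 21, at r = 0.695. For miR-212-3p the closest were miR-24-3p (r = 0.918), miR-6216 (0.844), miR-290 (0.827), miR-652-5p (0.826) and miR-129-5p (0.795), and miR-132-3p ranked 12. All but miR-196b-5p, detected on 22 arrays, were detected on all 24. With 8 points that share their arrays, these correlations only describe the pattern.

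Other miRs linked to islets, neurons or stimulation, a list of 13, were read beside the cluster. Of these, 10 were detected on at least 1 array. The list was chosen with earlier results known, and the study had already singled out miR-146a-5p from these arrays. Calls in the list therefore do not measure how small a change of the 3p arms could be seen. Standard errors in 24h_Cyt vs 24h_Ctrl were 0.032 for miR-146a-5p and 0.050 for miR-203a-3p, against 0.16 for both 3p arms. In 24h_Cyt vs 24h_Ctrl the median log2FC was 0.10 over the list and -0.011 over all miRs. There 3 of the 13 were called higher and 0 lower, beside 3.96% of all 758 miRs called in either direction. The 3 called were miR-29a-3p, miR-146a-5p and miR-203a-3p. miR-29a-3p, which is known to act on β-cell function, rose by a log2FC of 0.76 (SE 0.15, limma's adjusted p-value 0.00514) and was detected on all arrays. miR-146a-5p, a brake on signalling from IL-1 receptors, was detected on all arrays of 24h_Cyt and 24h_Giv_Cyt and on no others. It was at least 1.05-fold higher in 24h_Cyt than in 24h_Ctrl (limma's adjusted p-value 4.91e-10) and at least 1.18-fold higher in 24h_Giv_Cyt than in 24h_Giv_Ctrl (9.47e-12), where it was the only one of the 13 called. These bounds set the bright arrays against the lowest detected signal of the dim ones. miR-203a-3p was detected on 2 of the 24h_Cyt arrays and on no array of 24h_Ctrl, so no fold is given. At 6 h, 0 of the 13 were called with cytokines, as was the case for all 758 miRs. miR-375-3p gave -0.30 in 24h_Cyt vs 24h_Ctrl (SE 0.12, limma's adjusted p-value 0.128).

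On rn4 the nearest array miR before the cluster was miR-195-3p, 5406 kb away and detected on 3 arrays, and the nearest after it was miR-22-5p, 302 kb away and detected on none. Neither was called in the 24 h cytokine comparisons. The 3p arm of the latter hairpin, miR-22-3p, was detected on all arrays and was looked at after its values were seen. It was called higher in 24h_Cyt vs 24h_Ctrl (log2FC 0.34, SE 0.087, limma's adjusted p-value 0.0234), where the 3p arms of the cluster read lower. In 24h_Giv_Cyt vs 24h_Giv_Ctrl its log2FC was 0.028 (limma's adjusted p-value 0.888).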

How the data were processed

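INS1 RNA of 24 samples was hybridized to 1-colour Agilent rat miRNA arrays. The authors deposited 1 scanner file per array, with linear spot intensities before any normalization between arrays, and a table of log2 values per miR, used as an alternative. The file headers name Feature Extraction 10.7.3.1, whereas the submitters' processing notes name 9.1. Median foreground intensities were taken without background correction, control spots were removed, quantile normalization was applied and values were put on the log2 scale, following the study's methods. The 16 spots of a miR were averaged, and limma 3.58.1 in R 4.3.3 was fitted to all 24 arrays with 8 group means and 16 residual degrees of freedom. p was adjusted over 758 miRs (Benjamini-Hochberg), and calls required an adjusted p below 0.05 together with a log2FC beyond 0.1375 in either direction, the study's limits. The study's pooled correlation over spots was an alternative. Signals below a floor of 4.44 were raised to it before log2 where processed intensity was scaled, and miRs at the floor on all 24 arrays, which have no variance, were left out there, a choice made after the data were seen (369 miRs tested when scaled to detected miRs, 353 when scaled to all). The precision is limited by 3 arrays per group.

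The 4 members, the lists and the tests were chosen with earlier results of these data known. Named miRs are the members, miRs with the same seed, the nearest array miR on each side, the 5 most alike in pattern, the internal controls and those called among 13 islet or stimulus-linked miRs. Sequences were matched by name to RefSeq tables (GRCr8). On data simulated from 24h_Cyt vs 24h_Ctrl with 200 of 758 miRs changed, 91% of changes of 0.5 and 99% of changes of 1 (log2) were called. The changed miRs were drawn from all 758, of which 534 were detected on no array. The pooled SD within groups was 0.21 for both 3p arms, against 0.033 for miR-132-5p and 0.027 for miR-212-5p at background. The simulated rates therefore do not hold for the 3p arms. Same-numbered arrays of compared groups correlated, after removal of group means, at a median r of 0.104, so the replicate number was not used as a block in the main fit. All such r were above 0.1 in 2 of the 12 comparisons, 24h_Cyt vs 24h_Ctrl (0.35 to 0.73) and 24h_Cyt vs 6h_Cyt (0.20 to 0.82). In every other comparison the lowest r was negative. The replicate block was therefore run as an alternative. Figures used matplotlib 3.10.9 in Python 3.11.15.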

Additional observations from a re-analysis of the deposited data

How the results depend on the processing

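Under 17 other settings and over 18 comparisons, 538 of 612 values of the 3p arms kept their direction and their side of the threshold. Of the rest, 66 turned direction and 8 became called in the same direction. Not every setting was a test of direction. The pooled correlation over spots gave the log2FC of the main fit. For miR-132-3p in 24h_Giv_Cyt vs 24h_Giv_Ctrl both gave -0.51, with standard errors of 0.12 (pooled) and 0.16 (main). The replicate block also left this value at -0.51. The 538 values are therefore not read as a measure of how stable the directions are.

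Calls of the 4 arms, 0 as reported above, appeared as follows. The pooled correlation over spots called 1 arm in the average cytokine effect, 1 for 24h_Giv_Cyt against 6h_Giv_Cyt, and 2 in 24h_Giv_Cyt vs 24h_Giv_Ctrl. With processed signals scaled to the detected miRs 1 arm, miR-132-3p, was called in each of 24h_Cyt vs 24h_Ctrl, 24h_Giv_Cyt vs 24h_Giv_Ctrl and the average cytokine effect (log2FC -0.24, limma's adjusted p-value 0.0333), where 77, 8 and 31 of the 369 miRs tested were called. Without normalization 24h_Cyt vs 24h_Ctrl had 2 calls. Centred on the internal control miRs, both 5p arms, at background, were called: 2 in 24h_Cyt vs 24h_Ctrl, again 2 in 24h_Cyt vs 6h_Cyt, and 3 with miR-212-3p (-0.18) in the average of 24 h minus 6 h, where 505, 513 and 388 of the 758 miRs were called. In 24h_Cyt vs 24h_Ctrl the median log2FC of all miRs was 0.035 without normalization and -0.40 after this centring. The cause of these calls was not tested further.

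The 66 values that turned direction were as follows. Without normalization miR-132-3p gave 0.048 in 6h_Cyt vs 6h_Ctrl, 0.55 in 24h_Cyt vs 24h_Ctrl, -0.10 in 6h_Giv_Cyt vs 6h_Giv_Ctrl, 0.10 for 6h_Giv_Ctrl against 6h_Ctrl, 0.47 for 24h_Cyt against 6h_Cyt, 0.21 for 24h_Giv_Cyt against 6h_Giv_Cyt, and 0.12, 0.0032 and 0.19 in the average cytokine, Givinostat and time effects. miR-212-3p then gave 0.12 in 6h_Cyt vs 6h_Ctrl, 0.49 in 24h_Cyt vs 24h_Ctrl, 0.090 in 24h_Giv_Cyt vs 24h_Giv_Ctrl, -0.028 in 24h_Ctrl vs 6h_Ctrl, 0.34 for 24h_Cyt against 6h_Cyt, -0.11 in 24h_Giv_Ctrl vs 6h_Giv_Ctrl, and 0.18 and 0.040 in the average cytokine and time effects. The cytokine effect at 24 h minus that at 6 h was then 0.50 for miR-132-3p and 0.37 for miR-212-3p, and that with minus without Givinostat at 6 h was -0.15 and -0.098.

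Centred on the internal control miRs, miR-132-3p gave 0.12 in 24h_Cyt vs 24h_Ctrl, -0.083 in 6h_Giv_Cyt vs 6h_Giv_Ctrl, 0.056 for 6h_Giv_Ctrl against 6h_Ctrl, 0.024 for 24h_Cyt against 6h_Cyt, 0.039 in the average Givinostat effect and 0.13 for the cytokine effect at 24 h minus 6 h. miR-212-3p then gave 0.062 in 6h_Cyt vs 6h_Ctrl, 0.061 in 24h_Cyt vs 24h_Ctrl, -0.10 in 24h_Ctrl vs 6h_Ctrl, -0.17 in 24h_Giv_Ctrl vs 6h_Giv_Ctrl and 0.011 in the average cytokine effect. The cytokine effect with minus without Givinostat at 6 h was -0.069 and -0.018.

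With slide as a fixed block miR-212-3p gave -0.41 in 6h_Giv_Cyt vs 6h_Giv_Ctrl, -0.0025 for 6h_Giv_Ctrl against 6h_Ctrl, -0.12 for 24h_Giv_Ctrl against 24h_Ctrl, -0.31 for 6h_Giv_Cyt against 6h_Cyt, -0.25 in 24h_Ctrl vs 6h_Ctrl, -0.37 in 24h_Giv_Ctrl vs 6h_Giv_Ctrl, -0.20 in the average Givinostat effect, 0.046 for the cytokine effect at 24 h minus 6 h and -0.31 for that with minus without Givinostat at 6 h, and miR-132-3p gave 0.056 in 24h_Giv_Cyt vs 24h_Cyt. With slide as a random block miR-132-3p gave -0.0050 in 6h_Giv_Cyt vs 6h_Giv_Ctrl. Without slide 1 miR-212-3p gave -0.055 in 6h_Giv_Ctrl vs 6h_Ctrl and miR-132-3p 0.025 in the average of 24 h minus 6 h.

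In 6h_Cyt vs 6h_Ctrl miR-212-3p gave 0.0065 with the median over spots, 0.0070 with processed signals scaled to detected miRs, 0.0071 in the deposited table and 0.0050 without outlier spots. In 6h_Giv_Cyt vs 6h_Giv_Ctrl miR-132-3p gave -0.0068 with the median over spots, -0.015 with processed signals scaled to all miRs, -0.0070 in the deposited table and -0.055 without outlier spots. In 24h_Ctrl vs 6h_Ctrl it gave 0.045 with the median over spots and in the deposited table, and 0.023 and 0.0077 with processed signals scaled to detected and to all miRs. There miR-212-3p gave -0.0035 with processed signals scaled to all miRs and -0.0010 without outlier spots. In the average of 24 h minus 6 h miR-132-3p gave 0.017 with the median over spots or the deposited table. With processed signals scaled to detected miRs miR-212-3p gave 0.082 in 24h_Giv_Cyt vs 24h_Cyt, -0.0083 in 24h_Giv_Ctrl vs 6h_Giv_Ctrl and 0.021 for the cytokine effect with minus without Givinostat at 24 h.

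The change of the within-array difference turned to 0.012 with the longer probes in 24h_Cyt vs 24h_Ctrl and to 0.011 with processed signals in 24h_Ctrl vs 6h_Ctrl. Over 24 arrays in place of group means, 2 of the 5 miRs closest to miR-132-3p remained.

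Leaving out each array called 0 arms in all 18 comparisons. In 24h_Giv_Cyt vs 24h_Giv_Ctrl the log2FC ran from -0.61 to -0.40 for miR-132-3p (limma's adjusted p-value 0.0769 to 0.684) and from -0.51 to -0.31 for miR-212-3p. In 24h_Cyt vs 24h_Ctrl it ran from -0.31 to -0.20 and from -0.30 to -0.17. Ranges crossed 0 for both arms in 6h_Giv_Cyt vs 6h_Giv_Ctrl (-0.12 to 0.22 for miR-132-3p, -0.021 to 0.27 for miR-212-3p), 24h_Ctrl vs 6h_Ctrl (-0.14 to 0.039, -0.13 to 0.14) and the cytokine effect with minus without Givinostat at 6 h (-0.0091 to 0.33, -0.021 to 0.27). They did so for miR-132-3p in 6h_Giv_Cyt vs 6h_Cyt (-0.22 to 0.067) and the average of 24 h minus 6 h (-0.062 to 0.032). For miR-212-3p they did so in 6h_Cyt vs 6h_Ctrl (-0.17 to 0.12), 6h_Giv_Ctrl against 6h_Ctrl (-0.12 to 0.16), 24h_Giv_Ctrl against 24h_Ctrl (-0.030 to 0.14), 24h_Giv_Ctrl vs 6h_Giv_Ctrl (-0.072 to 0.15) and the average Givinostat effect (-0.00073 to 0.080). The replicate number as a block changed no call: miR-132-3p stayed at -0.51 in 24h_Giv_Cyt vs 24h_Giv_Ctrl (limma's adjusted p-value 0.228 under the replicate block). The dimness of both 3p arms, and the absence of the 5p arms above background, limit what these arrays can show.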
